A study of Mus musculus with 61 samples.

Results

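Sorted nuclei of the 2 classes of projection neuron of the mouse nucleus accumbens were compared after a single injection of morphine. The comparison used 15 of the 61 RNA-seq libraries of the series, chosen by cell class and treatment label alone. Of these, 7 came from D2 nuclei and 8 from D1 nuclei, all of male mice that had received daily saline for 15 days, had stayed in the home cage for 30 days and were killed 1 h after a morphine challenge. This treatment is called SM, for saline followed by morphine. D2 nuclei came from crosses of D2-Cre with LSL-eGFP::L10a mice and D1 nuclei from crosses of D1-Cre with the same reporter line, so every mouse carried the green fluorescent reporter and a Cre driver. Sorting relied on that reporter, and cell class and driver line change together. A difference made by the driver transgene and one made by the cell class therefore cannot be told apart by the design. The labels do not tie a dose or an age to any mouse, nor do they say whether replicates of a group are separate animals, so p-values measure only the spread between these libraries. For reference, the same 2 classes were also measured after saline throughout (SS, 7 D2 and 8 D1 libraries), after repeated morphine with a saline challenge (MS, 8 D2 and 9 D1) and after repeated morphine with a morphine challenge (MM, 7 D2 and 7 D1).

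Striatal projection neurons fall into an indirect-pathway class, which carries the D2 dopamine receptor and makes enkephalin, and a direct-pathway class, which carries the D1 receptor and makes dynorphin and substance P. The D1 receptor raises and the D2 receptor lowers cyclic AMP. Morphine acts mainly through the mu opioid receptor, which is coupled to inhibitory G proteins, and raises dopamine in the accumbens, so that both classes are downstream of it through opioid and dopamine receptors.

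The deposited counts carry no sequence. The 250 bases before the RefSeq start (build GRCm38.p6) are shown for the receptor genes that define the classes and for the called class markers outside the receptor loci, since these are the genes on which the comparison turns. They are written 5′ to 3′ on the strand of the gene, and capitals mark letters matching one of 5 motifs searched on both strands.
Drd2, chr9:49340153-49340402, plus strand: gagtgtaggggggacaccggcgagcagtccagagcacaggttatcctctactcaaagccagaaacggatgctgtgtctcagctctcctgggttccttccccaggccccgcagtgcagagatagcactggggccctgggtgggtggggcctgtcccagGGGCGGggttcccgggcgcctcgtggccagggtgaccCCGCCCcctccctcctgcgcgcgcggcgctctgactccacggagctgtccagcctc
Drd1, chr13:54055659-54055908, minus strand: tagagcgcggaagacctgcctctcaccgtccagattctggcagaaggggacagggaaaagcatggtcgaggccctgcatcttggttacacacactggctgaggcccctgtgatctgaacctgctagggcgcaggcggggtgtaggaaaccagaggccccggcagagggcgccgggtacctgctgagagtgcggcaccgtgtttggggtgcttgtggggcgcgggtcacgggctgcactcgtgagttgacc
Pdyn, chr2:129699939-129700188, minus strand: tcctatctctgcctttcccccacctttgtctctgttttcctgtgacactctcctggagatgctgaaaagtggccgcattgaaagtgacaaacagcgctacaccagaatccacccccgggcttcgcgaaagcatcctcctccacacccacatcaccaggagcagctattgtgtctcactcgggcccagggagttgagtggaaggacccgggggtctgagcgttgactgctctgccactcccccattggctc
Slc35d3, chr10:19851460-19851709, minus strand: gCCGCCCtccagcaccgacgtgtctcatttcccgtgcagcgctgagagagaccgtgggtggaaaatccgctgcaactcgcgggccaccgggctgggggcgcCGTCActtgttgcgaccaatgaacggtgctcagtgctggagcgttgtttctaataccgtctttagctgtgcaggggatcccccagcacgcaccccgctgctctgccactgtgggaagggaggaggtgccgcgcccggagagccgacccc
The motifs were the cyclic AMP response element half-site TGACG, the full element TGACGTCA, which contains the half-site, the AP-1 site TGANTCA, the TATA box TATAAA and the GC box GGGCGG. Capitals in the Drd2 window are 2 GC boxes, and those in the Slc35d3 window are 1 GC box and 1 half-site. None of the 5 motifs matched in the Drd1 or Pdyn windows. Among 32841 promoter windows of the same length, 32.7% held a GC box, 17.8% a half-site, 12.4% a TATA box, 6.75% an AP-1 site and 1.55% a full element. A match is a description of letters and not evidence of binding.

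In edgeR, 15 of 38782 tested genes differed between D2 and D1 nuclei at an adjusted p under 0.05, which is 0.0387% of those tested. Of these, 4 were higher in D2 (0.0103%) and 11 were lower (0.0284%). At an unadjusted p under 0.05 there were 1427 genes (3.68%). The receptor genes and their neighbours made up most of the calls. Within 300 kb of Drd2 lay 4 called genes, all higher in D2, and within the same distance of Drd1 lay 7, all lower in D2. The 4 called genes elsewhere were Pdyn, Slc35d3, A630036G19Rik and Gm10493, all lower in D2. The groups did not overlap in CPM (counts per library total, with TMM scaling) for 29 genes (0.0748% of those tested), 12 higher in D2 (0.0309%) and 17 lower (0.0438%), and Gm10493 was the only called gene whose groups overlapped. Total counts ran from 15539738 to 19361287 in D2 libraries and from 14275678 to 24989966 in D1 libraries.

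One property of these libraries bears on every value. Counts fell on olfactory and vomeronasal receptor genes, genes of the nose with no known place in striatal neurons, in all 15. Their density, in CPM per kb of gene span without TMM scaling, is used below as a background. A level is also given as a multiple of this background, likewise without TMM scaling. Spread over all genes by their span, this density would account for 53.8 to 79.5% of counts in D2 libraries (median 73.3%) and 33.1 to 86.3% in D1 libraries (median 59.6%). The group means were 70.3 ± 9.51% in D2 (SD, n = 7) and 60.9 ± 16.3% in D1 (SD, n = 8), and the ranges overlapped. At least 2 times background in either class stood 11849 tested genes (30.6%), among them all 15 called genes. These 11849 genes had a median log2 fold change of -0.14, D2 over D1, against 0.03 over all tested genes and 0.07 over the genes below that level. Since a gene enters that set through the class in which it is high, its median is a description alone.

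Drd2, the D2 dopamine receptor gene itself, separated the classes. This checks the labels only for cell class and driver line together, since the design does not part them. Drd2 CPM had a lowest value of 455, a median of 741 and a highest of 972 in D2 libraries, against 59.6, 72.7 and 206 in D1 libraries. The lowest D2 library stood above the highest D1 library, which was D1 replicate 2. Drd2 (ENSMUSG00000032259.8, protein coding, mm10 chromosome 9, 49340627 to 49408177, plus strand) had a log2 fold change of 2.97 ± 0.29 (SE, adjusted p = 1.8e-04). By group means it stood at 20.8 times background in D2 and at 3.28 times in D1. The D1 mean was raised by replicate 2, at 9.58 times, while the D1 median was 2.34 times. Every D1 library stood above background, but D1 replicates 3, 7 and 8 stood under 2 times background.

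Drd1, the D1 receptor gene, showed the opposite order. Its CPM ran from 7.42 over a median of 10.4 to 14.2 in D2 libraries, against 27.3, 69.1 and 99.8 in D1 libraries. Every D2 library lay below every D1 library. Drd1 (ENSMUSG00000021478.6, protein coding, chromosome 13, 54051183 to 54055705, minus strand) had a log2 fold change of -2.70 ± 0.28 (SE, adjusted p = 3.1e-04). It stood at 4.48 times background in D2 and 34.7 times in D1. In D1 nuclei it stood above Drd2 by this measure per length. In bulk counts of this kind, fewer nuclei that express a gene and less RNA per nucleus cannot be told apart.

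**Figure D1:**
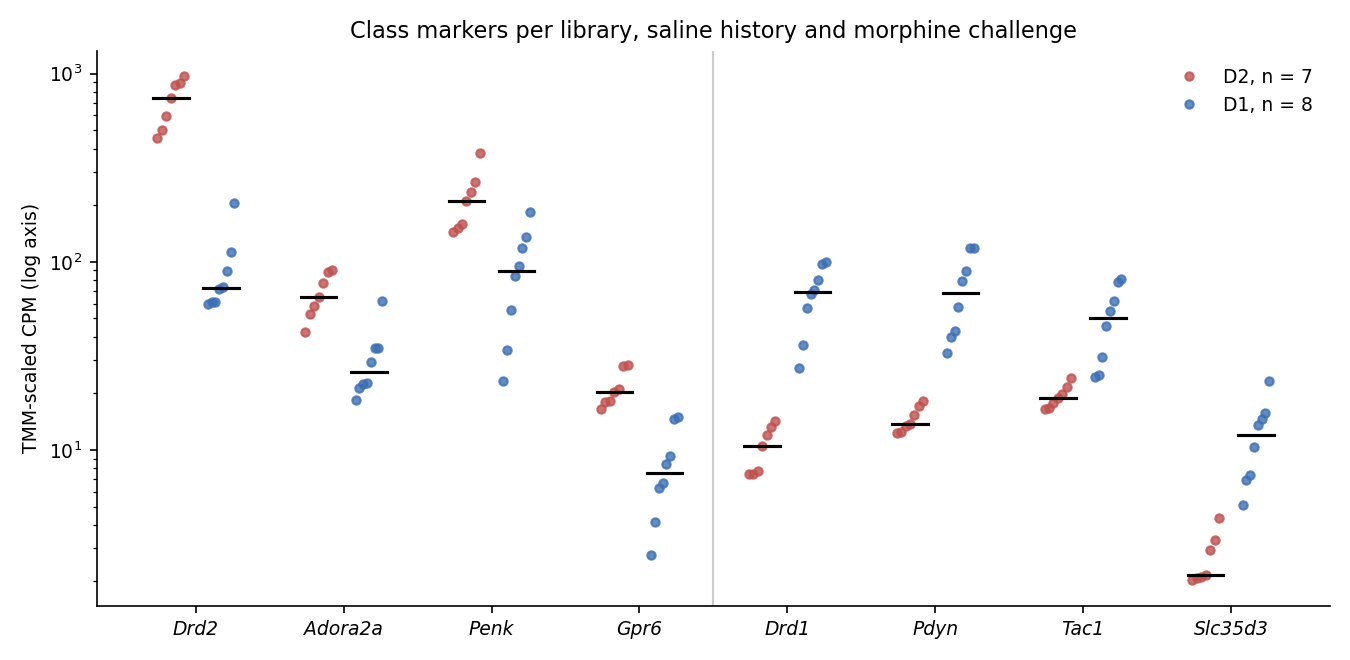
TMM-scaled CPM (log axis) of 4 D2 class and 4 D1 class marker genes in each SM library, D2 in red left of D1 in blue, with points sorted by value and black bars at the group medians. Drd2 and Gpr6 were higher in every D2 library than in any D1 library, Drd1, Pdyn, Tac1 and Slc35d3 were lower in every D2 library, and Adora2a and Penk overlapped.

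The genes beside Drd2 followed it. Ttc12, a gene for a protein of cilia, had 121, 133 and 148 CPM as lowest, median and highest values in D2 libraries, against 32.8, 34.7 and 40.3 CPM in D1 libraries. With a log2 fold change of 1.92 ± 0.07 (SE), it had the smallest adjusted p of all genes (5.6e-12). Ankk1, a kinase gene just beyond the end of Drd2, had 39.9, 46.1 and 56.8 CPM in D2 libraries and 9.32, 11.2 and 18.1 CPM in D1 libraries. Neither gene showed any overlap of the groups. The log2 fold change of Ankk1 was 2.05 ± 0.12 (SE, adjusted p = 1.3e-08), and that of Gm4894, on the other side of Drd2, was 0.99 ± 0.11 (SE, adjusted p = 9.4e-05). Of 10 tested genes within 300 kb of Drd2, these 3 were called, against 0.0103% of all tested genes called higher in D2. Their levels were 2.51 to 7.98 times background in D2 and 1.40 to 2.26 times in D1. The other 7 had log2 fold changes between -0.33 and 0.21. The called genes with Drd2 spanned 235.695 kb, from 49250531 to 49486225. Ncam1, a cell adhesion gene 93.959 kb from Drd2 and the next tested gene past Ttc12, had -0.26 ± 0.18 (SE, adjusted p = 0.72).

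A stretch of similar size surrounded Drd1, with the opposite sign. Sfxn1, a mitochondrial serine transporter gene 16.164 kb from Drd1, had 26.6, 27.7 and 33.6 CPM in D2 libraries, against 67.8, 99.5 and 149 CPM in D1 libraries, with no overlap. Its log2 fold change was -1.80 ± 0.13 (SE, adjusted p = 2.1e-07). The noncoding genes Gm34557 (-1.36), Gm48550 (-1.25) and E130119H09Rik (-1.37) and the pseudogenes Gm18974 (-1.41) and Gm18473 (-1.33) were also called. Counts over pseudogenes can be shared with near-identical copies and are uncertain. The call of Gm18473 (adjusted p = 0.0137) was lost with total counts (0.0565), with the replicate number as a block (0.0518) and in fits of all libraries together, with D1 replicate 1 of SS (0.375) and without it (0.151). Together 6 of 11 tested genes within 300 kb of Drd1 were called, against 0.0284% of all tested genes called lower in D2. Their levels were 0.876 to 1.82 times background in D2 and 2.47 to 6.35 times in D1. In D2 nuclei these neighbours were thus under 2 times background. The other 5 had log2 fold changes between -0.33 and -0.11, and the histamine receptor gene Hrh2, at 136.424 kb, had -0.20 ± 0.08 (SE, adjusted p = 0.72). With Drd1 the called genes spanned 253.176 kb, from 53888627 to 54141802. Cre drivers for these receptors are, as a rule, artificial chromosomes that carry a receptor gene with long flanking sequence. Whether the counts of the receptor genes and their neighbours came from the driver transgene or from the native locus was not tested.

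**Figure D2:**
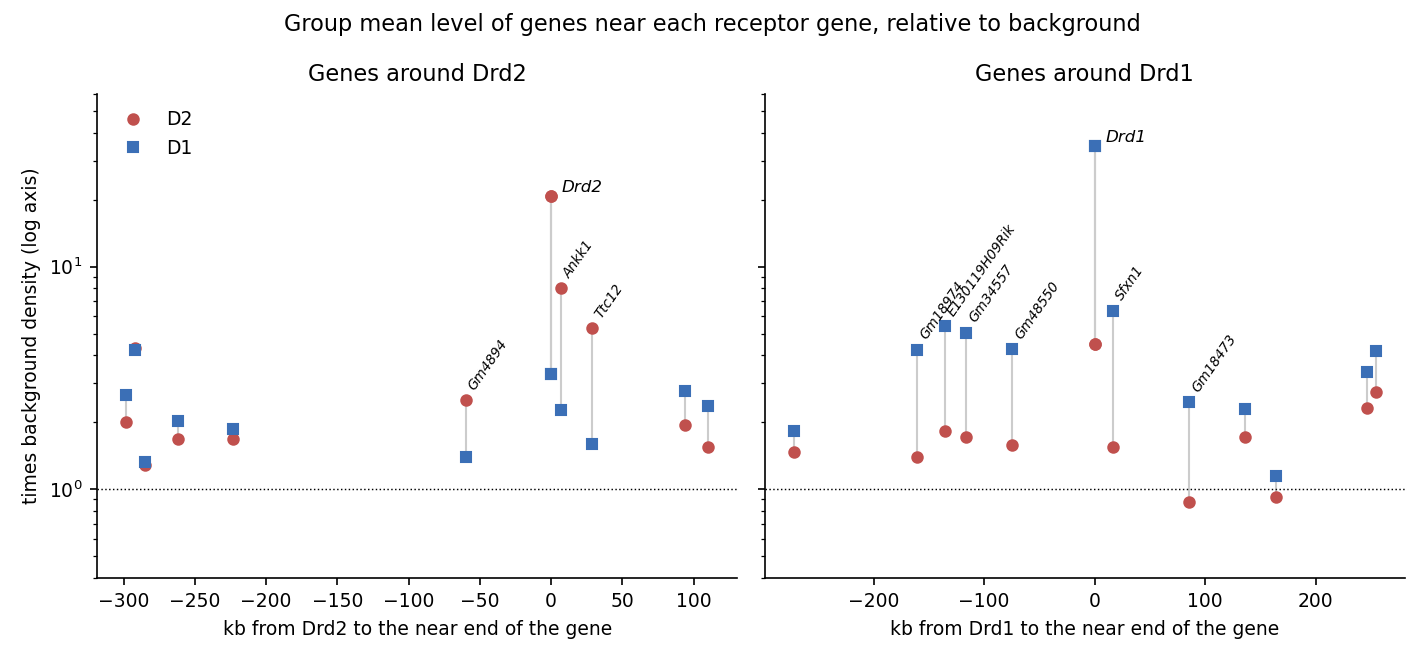
Group mean level as a multiple of background (log axis, dotted line at background) against distance in kb from Drd2 (left) or Drd1 (right) for tested genes within 300 kb, D2 as red circles and D1 as blue squares, with called genes named. The called genes lie on both sides of each receptor gene, 3 around Drd2 with D2 above D1 and 6 around Drd1 with D2 below D1.

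Among 9 markers of the D1 class, 3 were called, all lower in D2 (Drd1, Pdyn and Slc35d3), against 0.0284% of all tested genes. The median log2 fold change of the 9 was -1.38, and 7 had a negative sign. Pdyn, the precursor of dynorphin, had 12.3, 13.8 and 18.2 CPM as lowest, median and highest values in D2 libraries, against 32.7, 68.3 and 119 CPM in D1 libraries. All D2 values lay below all D1 values. Pdyn (ENSMUSG00000027400.11, chromosome 2, 129686565 to 129699844, minus strand) had -2.30 ± 0.28 (SE, adjusted p = 0.0025) and stood at 2.17 times background in D2 and 13 times in D1. Slc35d3, a nucleotide sugar transporter gene known for a role in dopamine receptor trafficking in direct-pathway neurons of mice, had 2.03, 2.16 and 4.36 CPM in D2 libraries and 5.12, 12 and 23.3 CPM in D1 libraries. The groups did not overlap. Its log2 fold change was -2.16 ± 0.31 (SE, adjusted p = 0.0136), but the call was lost in 6 of 15 fits that left out 1 library, among them 5 of the 7 D2 libraries (replicates 2, 3, 5, 6 and 7) and D1 replicate 2, with an adjusted p of up to 0.0797, and with no filter on low counts (0.0503).

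The remaining calls outside the receptor loci were of unclear genes. A630036G19Rik, an unclassified transcript on chromosome 16, had 1.82, 2.09 and 2.87 CPM in D2 libraries and 3.27, 5.21 and 8.83 CPM in D1 libraries, which did not overlap (log2 fold change -1.25 ± 0.20, SE, adjusted p = 0.0156). It was lost without D2 replicate 2, 3, 6 or 7, with limma voom (adjusted p = 0.0661) and in fits of all libraries together, with D1 replicate 1 of SS (0.894) and without it (0.0748). On the same chromosome, Gm49674 (74873039 to 74875938) and Gm26937 (74961240 to 74962247) lay before A630036G19Rik (75030852 to 75034931). Neither was called in edgeR, at -1.14 (adjusted p = 0.447) and -1.15 (adjusted p = 0.323). DESeq2 called both, at -1.18 each (adjusted p = 0.0195 and 0.0172). Gm10493, a processed pseudogene on chromosome 17, had 0.202, 0.382 and 0.798 CPM in D2 libraries and 0.77, 1.88 and 4.02 CPM in D1 libraries, which overlapped (-2.27 ± 0.37, SE, adjusted p = 0.0203). It was lost in 10 of the 15 fits, those without D2 replicate 1, 2, 3, 5, 6 or 7 or D1 replicate 1, 4, 5 or 6, with an adjusted p of up to 0.150, and also with voom (0.0795) and with no filter on low counts (0.0583).

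Other D1 class markers did not pass. Tac1, the precursor of substance P, had 16.5, 18.8 and 24.1 CPM in D2 libraries and 24.5, 50.1 and 81.3 CPM in D1 libraries, which did not overlap, with a log2 fold change of -1.38 ± 0.26 (SE, adjusted p = 0.165). Chrm4, the muscarinic M4 receptor gene, which opposes D1 signalling in these neurons, had -1.90 ± 0.38 (SE, adjusted p = 0.331). Leaving out D1 replicate 8, the library with the highest background share (86.3%), brought Tac1 to -1.52 with an adjusted p of 0.0441, and leaving out D1 replicate 7 gave -1.52 (adjusted p = 0.0300). The values of Isl1, a transcription factor of the D1 class, and of Asic4, an acid-sensing ion channel subunit gene, were -0.48 ± 0.14 (SE, adjusted p = 0.72) and -0.58 ± 0.13 (SE, adjusted p = 0.447). Ebf1, a transcription factor of developing direct-pathway neurons, and Eya1, a transcription coactivator gene, had 0.02 ± 0.08 and 0.10 ± 0.09 (SE), and both were under 2 times background in each class.

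Of 6 tested markers of the D2 class, 1 was called (Drd2), against 0.0103% of all tested genes higher in D2, with a median log2 fold change of 1.21 and a positive sign in all 6. Adora2a, the adenosine receptor gene of indirect-pathway neurons, whose product raises cyclic AMP, had 42.4, 65.4 and 90.4 CPM in D2 libraries, against 18.4, 25.9 and 61.8 CPM in D1 libraries. The groups overlapped through D1 replicate 2. Its log2 fold change was 1.14 ± 0.25 (SE, adjusted p = 0.443), and without D1 replicate 2 it was 1.34 (adjusted p = 0.0413). Gpr6, an orphan receptor gene that is constitutively active, had 16.6, 20.4 and 28.4 CPM in D2 libraries and 2.78, 7.58 and 15.1 CPM in D1 libraries without overlap, at 1.35 ± 0.29 (SE, adjusted p = 0.456). Penk, the enkephalin precursor, had 143, 211 and 380 CPM in D2 libraries and 23.3, 89.3 and 185 CPM in D1 libraries. Its ranges overlapped, and it stood at 83.3 times background in D2 and 41.8 times in D1, with a log2 fold change of 1.27 ± 0.38 (SE, adjusted p = 0.72). The kainate receptor subunit gene Grik3 had 0.41 ± 0.15 and Sp9, a transcription factor needed for D2 neurons in mice, had 0.30 ± 0.15 (SE, adjusted p = 0.72 each).

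Calls differed in a fit with the background density of each library as a covariate, where 28 genes were called, 18 higher and 10 lower in D2, with 14 of the 15 genes among them. Adora2a then had 1.51, Gpr6 1.73, Grik3 0.62 and Sp9 0.50, all with an adjusted p under 0.05, and Penk had 1.73 (adjusted p = 0.153). On the D1 side, Drd1 had -2.34, Pdyn -1.83 and Slc35d3 -1.77 and stayed called, while Chrm4 (-1.34, adjusted p = 0.3) and Tac1 (-1.09, adjusted p = 0.713) did not pass. A630036G19Rik was lost (-1.23, adjusted p = 0.0750).

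With DESeq2 on the same 15 libraries, 27 genes were called, 9 higher and 18 lower in D2, the 15 genes among them. That fit called Tac1 (-1.42, adjusted p = 8.8e-05), Chrm4 (-1.93, adjusted p = 1.4e-04), Gpr6 (1.31, adjusted p = 0.0272) and Adora2a (1.10, adjusted p = 0.0374), while Penk had 1.23 (adjusted p = 0.465). Which class markers beyond Drd2, Drd1 and Pdyn pass therefore depends on the test, the filter, the libraries kept and how the background is handled.

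A second view, chosen after seeing the data, took the background off each library before scaling and compared group medians, with no test. On this scale, which used no TMM factors, Drd2 had a median of 2178 in D2 libraries and 112 in D1 libraries (CPM after subtraction). The D1 median was 5.13% of the D2 median. Adora2a had medians of 180 in D2 and 52.2 in D1, and its lowest D2 value of 162 stood above its highest D1 value of 92.3. The Penk medians were 818 in D2 and 217 in D1, a log2 ratio of 1.92, and these groups still overlapped. Over the 11849 genes at least 2 times background in either class, 0.177% did not overlap on this scale, 0.0844% higher and 0.0928% lower in D2. Of 5 D2 class markers at this level, 4 did not overlap, against 2 in TMM-scaled CPM, since Adora2a and Grik3 (604 to 1016 in D2 and 257 to 566 in D1) stopped overlapping. Of 7 D1 class markers 4 did not overlap on either scale, with Chrm4 in the place of Tac1, which overlapped after subtraction. The markers Sp9, Eya1 and Ebf1 were below this level in both classes and are not counted. Since a marker can enter through the class in which it is high alone, these counts are a description and no support for a separation. Among the called genes, Gm34557, Gm48550 and E130119H09Rik overlapped after subtraction and Gm10493 did not. The opposite class kept part of each marker. In D2 the median was 15.4% of that in D1 for Drd1, 16.3% for Pdyn, 36.7% for Chrm4 and 46.6% for Tac1, while for Slc35d3 it was 5.94%, with the lowest D2 value at -0.04.

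**Figure D3:**
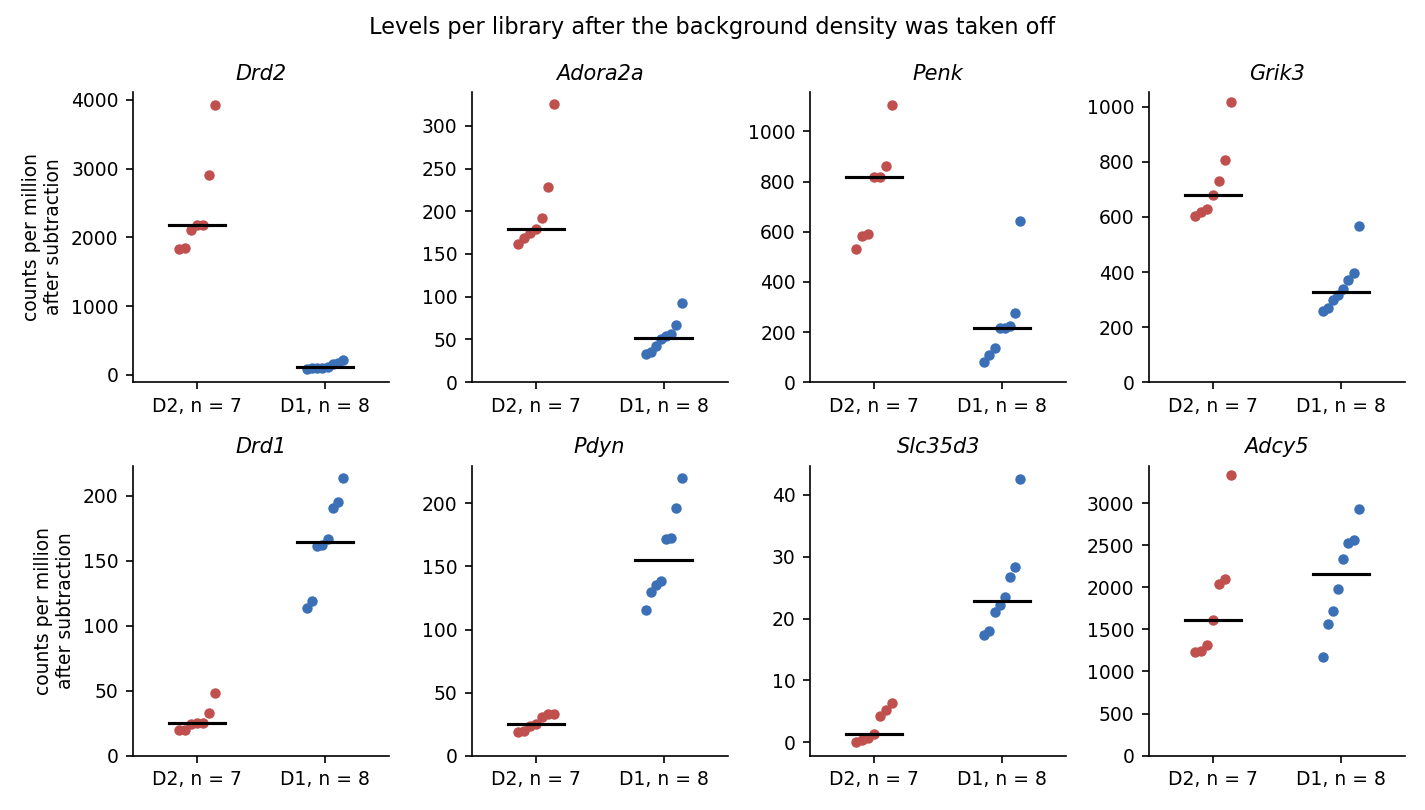
CPM per SM library after the background density was taken off, D2 (red, n = 7) left of D1 (blue, n = 8), with points sorted by value and black bars at the medians. Drd2, Adora2a and Grik3 lie higher in every D2 library, Drd1, Pdyn and Slc35d3 lie lower in every D2 library, and Penk and the shared gene Adcy5 overlap.

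Opioid genes beyond Pdyn gave no call. Of 8 tested opioid receptor and peptide genes, 1 was called (Pdyn, lower), against 0.0284% of all tested genes, and the median log2 fold change was 0.06 (0.01 to 0.04 when single libraries were left out). Oprm1, the mu receptor gene through which morphine acts, stood at 0.976 times background in D2 and 1.11 times in D1, so its counts cannot be parted from background and no class difference was detectable (0.02 ± 0.06, SE, adjusted p = 0.91). Oprk1, the kappa receptor gene and target of dynorphin, had 13.3, 15.8 and 19.6 CPM in D2 libraries, against 13.6, 25.7 and 33.1 CPM in D1 libraries. These ranges overlapped, and the log2 fold change was -0.64 ± 0.16 (SE, adjusted p = 0.698), or -0.77 (adjusted p = 0.0371) without D1 replicate 8. Oprd1, the delta receptor gene and target of enkephalin, had 29.5, 34.6 and 39.5 CPM in D2 libraries and 24.1, 28.1 and 31.4 CPM in D1 libraries, at 0.28 ± 0.08 (SE, adjusted p = 0.72), and with the background covariate it was called (0.35, adjusted p = 0.0108). It stood at 1.96 times background in D2 and 1.85 times in D1. The nociceptin receptor gene Oprl1 had -0.28 ± 0.19 and the peptide precursor genes Pomc and Pnoc had 0.09 ± 0.10 and 0.09 ± 0.09 (SE).

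Genes that both classes share gave no call. None of 19 shared projection neuron genes passed, while all 19 had a negative sign and their median was -0.44. Of all tested genes, 17404 of 38782 had a negative sign. Over genes at least 2 times background in either class the median was -0.14. Members can move together within a library, so 19 signs are not 19 separate observations. Their summed level, in CPM without TMM scaling, was 3276 to 5935 in D2 and 2903 to 9868 in D1. The D2 range lay within the D1 range. Adcy5, the adenylyl cyclase through which both receptors act, had 614 ± 240 CPM in D2 (SD, n = 7) and 1019 ± 641 CPM in D1 (SD, n = 8), a log2 fold change of -0.73 ± 0.40 (SE, adjusted p = 0.72). Ppp1r1b, which encodes the protein DARPP-32, a phosphatase inhibitor downstream of dopamine, had -0.59 ± 0.35, and Gnal, the stimulatory G protein subunit of these neurons, had -0.37 ± 0.24 (SE). The sign of the list median changed with the background covariate but not after subtraction. The list median was 0.05 with the background covariate and -0.12 after subtraction, where 16 of 19 kept a negative sign and Adcy5 had a log2 ratio of -0.42. The 37 dopamine and cyclic AMP signalling genes (0 called, median -0.28) and the 43 voltage-gated and potassium channel genes (0 called, median -0.28) had medians of 0.01 and -0.0014 with the covariate. Without D1 replicate 2 the medians were -0.26 for the shared genes, -0.14 for the signalling genes and -0.16 for the channels. Without D1 replicate 8 they were -0.59, -0.39 and -0.37 in the same order. How much of the shared genes' difference comes from the background was not tested.

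Immediate early genes, which respond to neuronal activity within the hour, gave no call at 1 h after morphine. None of 33 tested passed, 25 had a negative sign and the median was -0.29. Over all tested genes the median was 0.03, and 17404 of 38782 had a negative sign. Over genes at least 2 times background in either class the median was -0.14. With the covariate the median was -0.0043, and after subtraction it was -0.02, with 11 of 23 members higher and 12 lower. Those 23 stood at least 2 times background in either class, a level that 23 members reached in D1 and 12 in D2. Since a member can enter through the class in which it is high alone, this split is a description. Arc, an effector at synapses, had 4.05, 6.90 and 16.9 CPM in D2 libraries and 5.91, 10.6 and 21 CPM in D1 libraries, at -0.45 ± 0.33 (SE, adjusted p = 0.72). The ranges nearly coincided, and the highest D2 value came from replicate 5 alone. The transcription factor genes had -0.13 ± 0.17 for Fos, -0.14 ± 0.18 for Fosb, -0.32 ± 0.29 for Egr1, -0.35 ± 0.27 for Npas4 and -0.43 ± 0.21 for Nr4a1 (SE, adjusted p of 0.72 or more). Homer1, a scaffold of glutamate receptors, had -0.47 ± 0.16 (SE, adjusted p = 0.72). Fos stood at 2.17 times background in D2 and 2.82 times in D1, close to the background level. Of the glucocorticoid-induced genes, 0 of 14 were called, with -0.02 ± 0.07 for Fkbp5 and -0.34 ± 0.12 (SE) for Sgk1.

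Lists of other functions held no call. The 22 interferon-responsive genes had the highest median of these (0.12), with 1 member in D2 and 3 in D1 at 2 times background. The medians were -0.20 for 87 cytosolic ribosomal protein genes, -0.19 for 74 nuclear oxidative phosphorylation genes, -0.19 for 25 glutamate receptors, -0.19 for 14 GABA receptors, -0.22 for 33 synaptic vesicle genes and -0.20 for 36 chromatin regulators. Each of these 6 lay between -0.05 and 0.03 with the covariate. Without D1 replicate 2 the medians were -0.11 for oxidative phosphorylation, -0.10 for glutamate receptors and -0.10 for chromatin regulators, without D2 replicate 4 the ribosomal median was -0.34, and without D1 replicate 8 the vesicle median was -0.36. Among the 29 tested neuromodulator receptors, Chrm4 included, the median was -0.01. Striatal transcription factors (26 genes) and genes of accumbens subregions (18) had medians of -0.13 and -0.22. Both were lowest without D1 replicate 8 (-0.23 for the factors and -0.31 for the subregion genes) and highest without D1 replicate 2 (-0.09 for the factors and -0.11 for the subregion genes).

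Markers of cells that the sort could have let through stayed near background in both classes. No member stood at 2 times background in either class among 10 microglia, 9 endothelial, 5 oligodendrocyte precursor and 8 cortical glutamatergic markers, and 1 of 10 astrocyte and 2 of 13 oligodendrocyte markers did so in D1 alone. The summed level of oligodendrocyte markers, without TMM scaling, was 202 to 248 CPM in D2 and 207 to 240 CPM in D1. That of astrocyte markers, on the same scale, was 590.1 to 705.0 CPM in D2 and 641 to 728 CPM in D1. Of 14 interneuron markers, 1 in D2 and 3 in D1 reached 2 times background. These lists had medians of -0.01 to 0.10 and 0 calls. Counts of all genes with mt- names made up 0.00869 to 0.0390% in D2 libraries and 0.0145 to 0.0512% in D1 libraries. The list of mitochondrially encoded genes held only 13 of these. The 7 of the 13 that were tested had a median of -0.22 with 0 calls (-0.45 with the covariate and -0.40 with voom). That median ranged from -0.76 without D2 replicate 1 to -0.04 without D1 replicate 3.

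**Figure D4:**
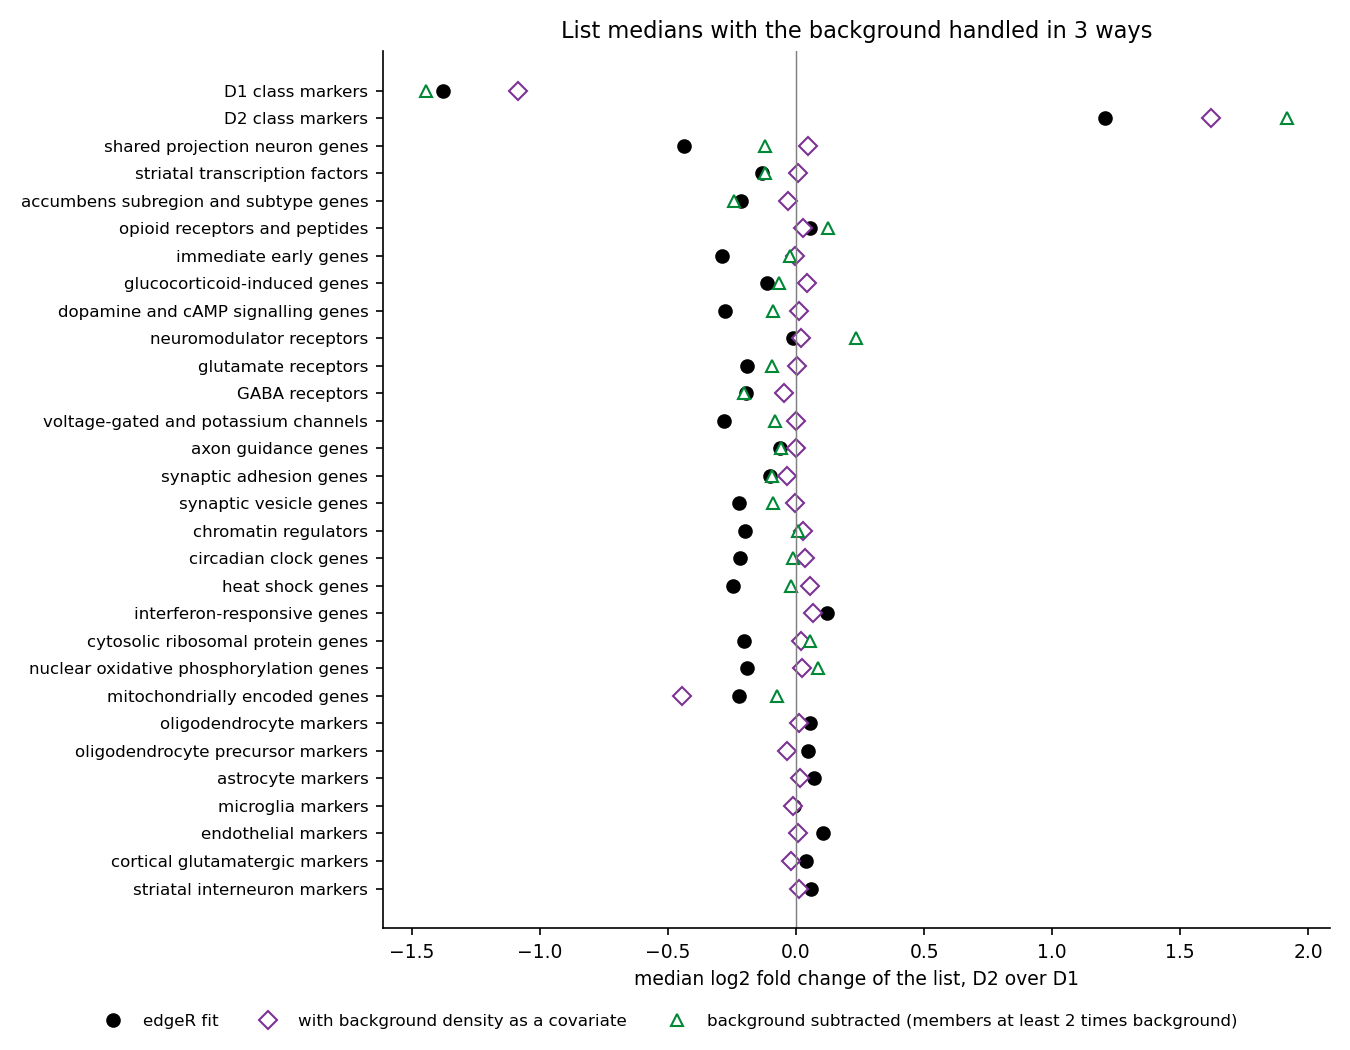
Median log2 fold change (D2 over D1) of each list in the edgeR fit (black circles), with the background density as a covariate (purple diamonds) and after background subtraction (green triangles, lists with 5 or more members at least 2 times background). The D1 class list lies at -1.38 and the D2 class list at 1.21 in the edgeR fit, and every other list lies between -0.44 and 0.12.

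The other 3 treatments hold the same class comparison in libraries that are not shared with SM. All 15 genes called in SM had the same sign in SS, MS and MM. Called there too were 11 of the 15 in SS (73.3% of the SM calls and 100% of the SS calls), 14 in MS (93.3% of the SM calls and 48.3% of the MS calls) and 13 in MM (86.7% of the SM calls and 61.9% of the MM calls). Of all tested genes, 0.0275% were called in SS, 0.0757% in MS and 0.0546% in MM. By direction, SS had 3 calls higher in D2 (0.00751%) and 8 lower (0.0200%), MS had 19 higher (0.0496%) and 10 lower (0.0261%), and MM had 7 higher (0.0182%) and 14 lower (0.0364%). The SS counts rest in part on D1 replicate 1 of SS, a library with a background share of 7.46%. Without it, 17 genes were called in SS, 7 higher and 10 lower in D2, among them 13 of the 15 (86.7% of the SM calls and 76.5% of those SS calls), and all 17 had the same sign in SM. Called in all 4 treatments, with that library, were 11 genes, and A630036G19Rik was called in SM alone. In SS, MS and MM, Drd2 had 2.60, 4.23 and 3.47, Drd1 -3.16, -2.10 and -2.70, Pdyn -2.32, -2.19 and -2.55, and Slc35d3 -2.01, -1.81 and -2.0 (log2 fold changes, D2 over D1). Every gene called in 1 of the other treatments had the same sign in SM (11 of 11 for SS, 29 of 29 for MS and 21 of 21 for MM).

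Genes called in other treatments and not in SM numbered 0 for SS, 15 for MS and 8 for MM. Without D1 replicate 1 of SS there were 4 for SS, Tac1 (-1.35, adjusted p = 0.0029) and Oprd1 (0.54, adjusted p = 0.0089) among them. In MS they included Adora2a (2.30 in MS, 1.14 in SM), Penk (2.08 in MS, 1.27 in SM), Gpr6 (2.14 in MS, 1.35 in SM), Grik3 (1.18 in MS, 0.41 in SM), Sp9 (1.00 in MS, 0.30 in SM) and Oprd1 (0.83 in MS, 0.28 in SM). In MM they included Tac1 (-1.85 in MM, -1.38 in SM) and Isl1 (-0.70 in MM, -0.48 in SM). Picked after their values were seen, Ndnf, a secreted neurotrophic factor gene, had 0.61 ± 0.12 (SE, adjusted p = 0.151) in SM, with 0.76 in MS and 0.69 in MM, where it was called. P2ry1, a purinergic receptor gene, and Nt5e, which makes adenosine outside cells, had 0.55 ± 0.16 and 0.27 ± 0.09 (SE, adjusted p = 0.72 each) in SM and were called in MS.

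**Figure D5:**
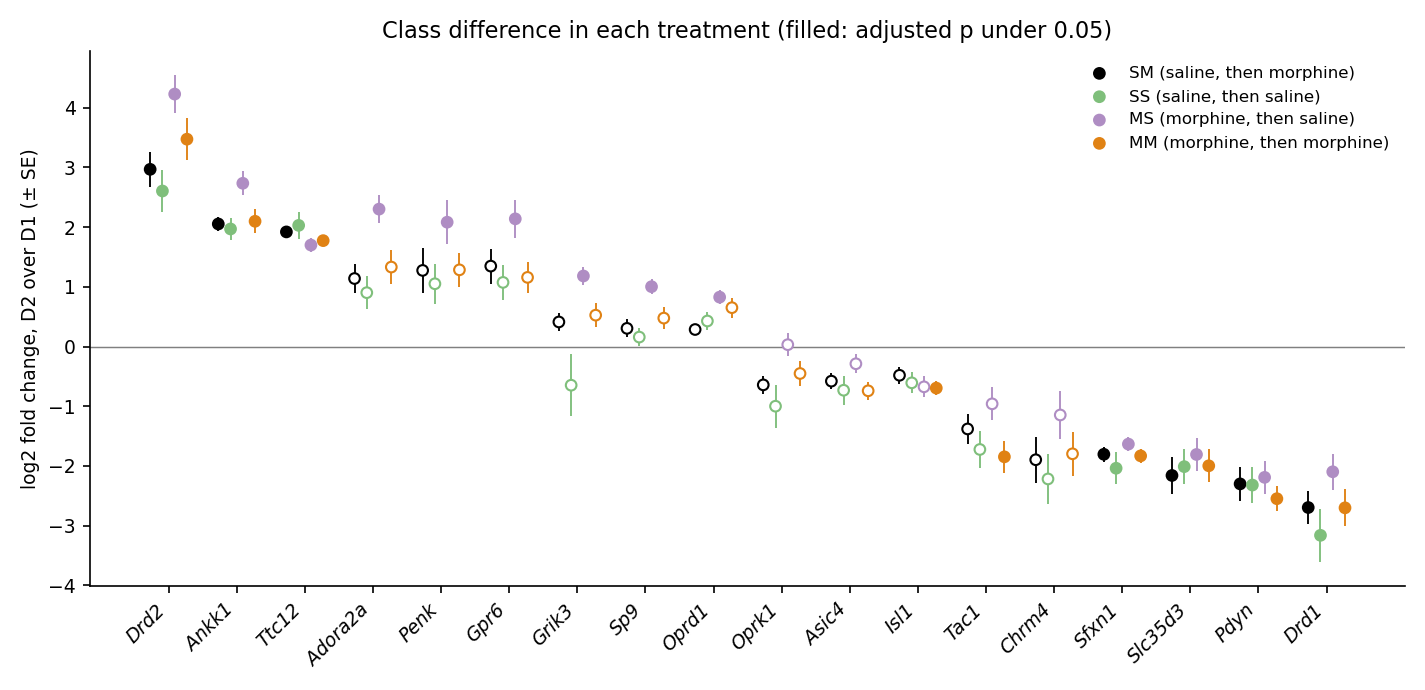
Log2 fold change of D2 over D1 with its SE for 18 named genes in SM (black), SS (green), MS (purple) and MM (orange), each treatment fitted apart, with filled points at an adjusted p under 0.05. Ttc12, Ankk1, Drd2, Sfxn1, Slc35d3, Pdyn and Drd1 are filled in all 4 treatments, while Adora2a, Penk, Gpr6, Grik3, Sp9 and Oprd1 are filled in MS alone.

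Whether the class difference in SM departed from that in other treatments was tested as an interaction over all 61 libraries and 42870 genes. Against SS, edgeR called 0 genes, with 1053 at an unadjusted p under 0.05 and a smallest adjusted p of 0.885. DESeq2 also called 0, with 2439 at an unadjusted p under 0.05. Against the mean of SS, MS and MM, edgeR called 0 with 491 and DESeq2 called 0 with 645 at an unadjusted p under 0.05. The difference of Drd2 was larger in SM than in SS by 0.34 ± 0.46 (log2, SE) and that of Drd1 less negative by 0.44 ± 0.49, both with adjusted p of 0.885 or more. For Fos the interaction with SS was 0.20 ± 0.30, for Arc 0.40 ± 0.59 and for Pdyn -0.02 ± 0.39 (log2, SE), none of which passed. The directions for Drd2, Drd1, Fos and Arc rest on D1 replicate 1 of SS. Without it, and with each treatment fitted apart, the log2 fold change of Drd2 was 2.97 in SM and 2.98 in SS, and that of Drd1 was -2.70 in SM and -2.55 in SS. Fos then had -0.13 in SM and -0.09 in SS, and Arc had -0.45 in SM and -0.16 in SS. Among the genes of smallest p against SS, Il20, an interleukin gene, had -0.78 ± 0.20, Slc17a7, the vesicular glutamate transporter of cortical neurons, had 2.52 ± 0.68, and Ccn2, a matrix protein gene, had 2.71 ± 0.80 (SE, adjusted p = 0.885 each). The olfactory receptor gene Olfr112 had 0.92 ± 0.28 and Klk7, a kallikrein protease gene, had -0.63 ± 0.19 (SE), at the same adjusted p. The values of Slc17a7 and Ccn2 fell to 0.56 and 0.47 without D1 replicate 1 of SS. Against the mean of SS, MS and MM, the smallest p belonged to Ccne1, the cyclin E gene (0.32 ± 0.10), Shd (0.51 ± 0.18), Bora, a mitotic kinase activator gene (0.22 ± 0.08), Slc17a7 (1.45 ± 0.55) and the olfactory receptor gene Olfr430 (0.55 ± 0.21), all log2 with SE and none passing (adjusted p = 0.999993 each). In SM itself Slc17a7 stood at 1.87 times background in D2 and 1.97 times in D1, with a log2 fold change of 0.10 ± 0.15 (SE, adjusted p = 0.778).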

How the data were processed

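The authors used featureCounts, mm10 and DESeq2, per the submitters' processing notes. The deposited raw counts were analysed. The FPKM values the authors deposited served to recover gene lengths, which equalled the whole gene span in GENCODE M21 for 54281 of 54281 identifiers (relative tolerance 1e-06). The sources used here name no aligner, strand setting or versions, so values of overlapping or antisense genes are uncertain. Counts were fitted with edgeR 4.0.16 (R 4.3.3; TMM, filterByExpr, robust quasi-likelihood test, two-sided, Benjamini-Hochberg over all tested genes, called under 0.05), on the 15 SM libraries alone. Alternatives used limma 3.58.1 and DESeq2 1.42.0. Scripts were tested on simulated data. The background came from 1464 olfactory and vomeronasal receptor genes.

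Of 55401 identifiers, 260 had no symbol. The comparison, lists and members were chosen with earlier results of these data known. Named were called genes of at least 1 mean log2 CPM with the 10 smallest p in each direction, leaving out Gm, Rik, -ps, mt-, Rpl and Rps names, plus called list members, all class and opioid genes, a fixed set of genes, and the 5 smallest p of each interaction. Exceptions are the Gm and Rik genes at the receptor loci and the 2 called ones elsewhere. Further exceptions are Gm49674, Gm26937, Ncam1 and Hrh2, picked after their values were seen. The Gpr52 and Bmal1 symbols of the lists were not matched. No pair of replicates agreed within counting noise.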

Additional observations from a re-analysis of the deposited data

Results flagged for a closer look

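Of 94 group values of named genes checked for a library far from its group, 6 stood apart, where chance gives about 1 in 20. The count is near that share, and values that share libraries are not independent. In D2, Arc reached 16.9 CPM in replicate 5, with the next highest at 9.33. The other 5 came from D1 replicate 2, the library with the lowest background share (33.1%) and the lowest TMM factor (0.796). There Drd2 reached 206 CPM (next 113), Ankk1 18.1 CPM (next 11.8), Adora2a 61.8 CPM (next 34.9), Grik3 406 CPM (next 264) and Gnal 569 CPM (next 332). Of these, Drd2, Ankk1, Adora2a and Grik3 mark the D2 class or its receptor locus and Gnal is shared by both classes. The part of the low background in these values was not tested.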

How the results depend on the processing

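The count of 15 called genes became 28 (18 higher in D2) with the background covariate and 27 (9 higher, 18 lower) with DESeq2, while 13 to 17 were called with RLE factors, total counts, no filter, the joint fits and voom. Leaving out each library gave 12 to 22 calls, 4 to 6 higher and 8 to 16 lower, the 22 without D1 replicate 8. In all of those 15 fits, 12 of the 15 genes stayed called, while Slc35d3 was lost in 6, A630036G19Rik in 4 and Gm10493 in 10. Same-numbered D2 and D1 libraries deviated together with correlations from -0.14 to 0.48, and only replicate 2 correlated best with its own number. So few correlations cannot decide whether equal numbers pair samples. A replicate block, which left out D1 replicate 8 for want of a partner, gave 36 calls, 30 of them lower, against 22 calls without that library and with no block. At an unadjusted p under 0.05 there were 8595 genes with the block, against 4544 without that library and with no block.

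Values that changed sign were all of genes not called. With the covariate they were Eya1 (-0.0033), Ebf1 (-0.072), Oprl1 (0.028), Fosb (0.12), Fos (0.097), Fkbp5 (0.047), Egr1 (0.11), Gnal (0.038) and Npas4 (0.018). Ebf1 had -0.0083 with RLE and DESeq2 and -0.012 without a filter, and -0.035 to 0.023 when libraries were left out. Oprm1 had -0.013 with RLE and DESeq2, -0.017 without a filter, -0.011 with the replicate block, and -0.033 to 0.019 when libraries were left out. Fkbp5 had 0.056 with total counts. After background subtraction they were Egr1 (0.27), Fos (0.23), Fosb (0.26), Nr4a1 (0.06) and Oprl1 (0.13). Both interactions had 0 calls without D1 replicate 1 of SS, with RLE factors, no filter, the covariate and DESeq2. The high background limits what depth can show for genes near it.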
